A study of Mus musculus with 12 samples.

Results

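The genes described here are 54 mouse genes whose products copy DNA. They were taken from a fixed list of gene symbols, and all 54 were found among the 55413 genes of the GENCODE M21 annotation (GRCm38), of which 21938 are protein-coding. For each gene the H4K12ac peaks within 2 kb of its TSS, taken as the annotated 5′ end, and in its gene body were read from 10 peak lists. The rule that selects them uses gene names and not the values of the peak lists.

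Neuronal nuclei were sorted by FACS from the whole hippocampus, 10 days after tamoxifen treatment had ended, and subjected to ChIP-Seq for acetylated lysine 12 of histone H4 (H4K12ac). The 5 *Tip60* cKO mice were homozygous for a floxed *Tip60* gene and carried CaMKCreERT2, a tamoxifen-inducible Cre driven in postmitotic excitatory neurons of the forebrain, so that progenitors and glia keep the gene. The 5 control mice had the same floxed alleles without the driver and received tamoxifen as well. The labels describe the animals as C57BL/6J males of 3 months. Nothing in the peak lists measures *Tip60* itself, and its deletion was therefore not checked here.

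TIP60 (KAT5) transfers acetyl groups to histone H4, and acetylated H4K12 marks nucleosomes around active promoters. Replication begins when the origin recognition complex, CDC6 and CDT1 load the MCM2-7 helicase onto DNA. CDC45 and the GINS complex activate this helicase, DNA polymerases alpha, delta and epsilon copy the strands, and the PCNA clamp, its loader RFC and the RPA proteins serve them at the fork. These genes are known as targets of E2F factors that are active in cycling cells, whereas neurons have left the cell cycle. Several of the proteins also act in DNA repair.

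The libraries had 22864189 to 37923809 tags in peak calling, and *Tip60* cKO replicate 5 had the fewest. Each list was called against 1 pooled input library of its own genotype, so that the background of all 5 mice of a genotype comes from the same input. Of 7 neuronal markers, all 7 had a TSS peak in every list, as did 5 of 6 markers of excitatory neurons. Of 5 markers of inhibitory neurons, none had a TSS peak in a control list, and *Gad2*, *Dlx1*, *Lhx6* and *Slc32a1* had one in 1, 1, 1 and 2 *Tip60* cKO lists. Of 6 astrocyte markers, *Aqp4* and *Aldh1l1* had none in any list, *Gfap* had one in 5 control and 4 *Tip60* cKO lists, *Sox9* in 3 and 1, *Slc1a3* in 2 and 1 and *Gja1* in 1 and 2. Of 7 markers of oligodendrocytes, *Mbp* had one in every list, *Sox10* in 2 and 2, and the other 5 had none. Of 6 microglial markers, *P2ry12* had one in 4 control and 1 *Tip60* cKO lists, and the other 5 had none. Among 10 genes of progenitors and cycling cells, *Mki67*, *Ccnb1*, *Cdk1*, *Bub1* and *Sox2* had no TSS peak in any list, *Hes5* had one in every list, and *Nes*, *Top2a* and *Ccna2* had one in some lists. The mean coverage of the TSS windows of this list by peaks was 8.96 to 12.2% in the control and 4.74 to 10.5% in the *Tip60* cKO libraries. It rests on few genes, since the median over the list was 3.29 and 0.875%, while *Hes5* had 51.2 and 37.6%. The part of such cells in the values of the replication genes was not tested. These are bulk lists, in which fewer acetylated nuclei and less acetylation per nucleus cannot be told apart.

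Most replication genes had an H4K12ac peak within 2 kb of their TSS in at least 1 list from these neurons. A peak was present in all 10 lists at 23 of the 54 genes (42.6%), in some lists at 25 genes and in none at 6 genes. The corresponding share of genes with a peak in all lists was 44.0% over all protein-coding genes, and 34.7% of protein-coding genes had no TSS peak in any list, compared with 11.1% of the replication genes. The replication genes were therefore more often found with a peak in only some lists (46.3%, compared with 21.3%), which is a description without a test. Control replicates 1 to 5 had a TSS peak at 39, 39, 36, 37 and 41 of the 54 genes. *Tip60* cKO replicates 1 to 5 had one at 40, 34, 34, 34 and 29 genes. The groups overlapped, since *Tip60* cKO replicate 1 exceeded 4 of the 5 controls.

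**Figure D1:**
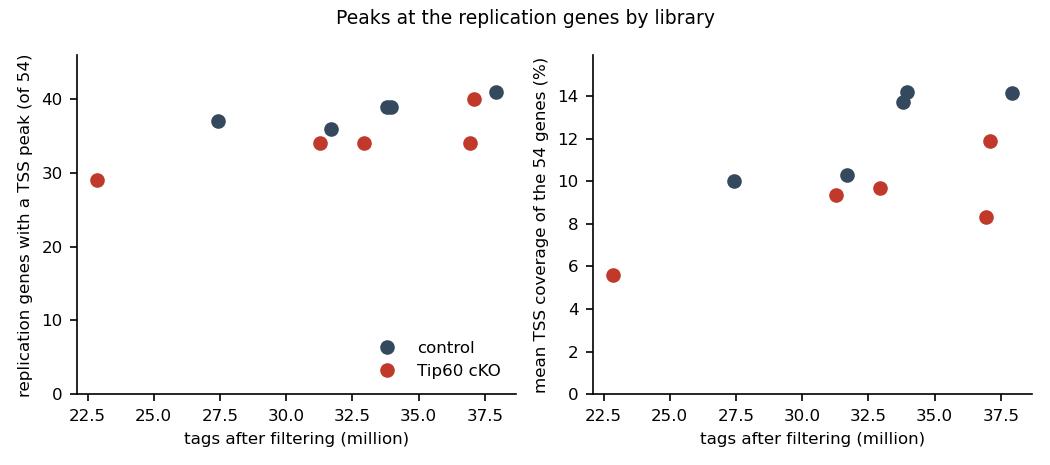
Number of the 54 replication genes with a TSS peak (left) and mean percent of their 4 kb TSS windows in peaks (right) plotted against the tags of each library; each point is 1 mouse, control in dark blue and *Tip60* cKO in red. The *Tip60* cKO library with 22864189 tags has the lowest value in both panels (29 genes and 5.59%).

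The level of each gene was expressed as a TSS rank score, the percent rank of the fold enrichment of its strongest TSS peak among all 55413 TSS windows of that list, with 0 for no peak. Since most windows have no peak, any peak scores at least 65.2 to 72.0, depending on the library. The median control score of the 54 genes was 70.2, close to the 71.8 of all protein-coding genes, and the upper quartile of the replication genes was lower (80.9, compared with 87.0). Of the 54 genes, 26 scored above the median protein-coding gene. The mean control coverage of the TSS windows was 12.5 ± 2.13% for the replication genes and 15.9 ± 1.59% for all protein-coding genes (SD, n = 5 mice).

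*Rfc4*, a subunit of the clamp loader, had the highest control score (94.3 ± 1.86, SD, n = 5), above 92.0% of protein-coding genes. It was followed by the origin recognition subunit *Orc4* (91.0 ± 6.06), the licensing factor *Cdt1* (90.7 ± 2.09), the polymerase delta subunit *Pold4* (89.6 ± 3.35), the MCM-binding protein gene *Mcmbp* (88.9 ± 4.43) and the fork protein gene *Wdhd1* (88.6 ± 4.40). *Orc4*, *Cdt1*, *Pold4*, *Mcmbp* and *Wdhd1* lay within 1 SD of each other, so that their order is not resolved. *Rfc4* lay within 1 SD of *Orc4* (6.06), so that its place above *Orc4* is not resolved either. At the other end, *Mcm2*, *Mcm10*, *Pole4*, *Pcna*, *Rfc3*, *Lig1* and *Clspn* scored 0 in all 5 control lists. *Mcm2* encodes a subunit of the replicative helicase, *Pcna* the sliding clamp and *Lig1* the ligase that seals Okazaki fragments.

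Absence of a peak at the annotated 5′ end depended on the annotation for some of these genes. *Pole4*, a histone-fold subunit of polymerase epsilon, has its GENCODE 5′ end 52.5 kb upstream of its RefSeq start, and a peak lay within 2 kb of the RefSeq start in all 10 lists. When the starts of all annotated transcripts were considered, *Mcm10* had a peak in 5 control and 4 *Tip60* cKO lists at a start 16.9 kb downstream of its 5′ end. At *Pcna* a peak lay within 2 kb of a start 3.14 kb downstream in all 10 lists, but none lay in its TSS window or gene body (0% in every list), so that this peak lies beyond the end of the gene, where *Tmem230* has its TSS. *Rfc3*, *Lig1* and *Clspn* had no peak at any annotated start in any list. *Rfc3* and *Lig1* also had none in the gene body.

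**Figure D2:**
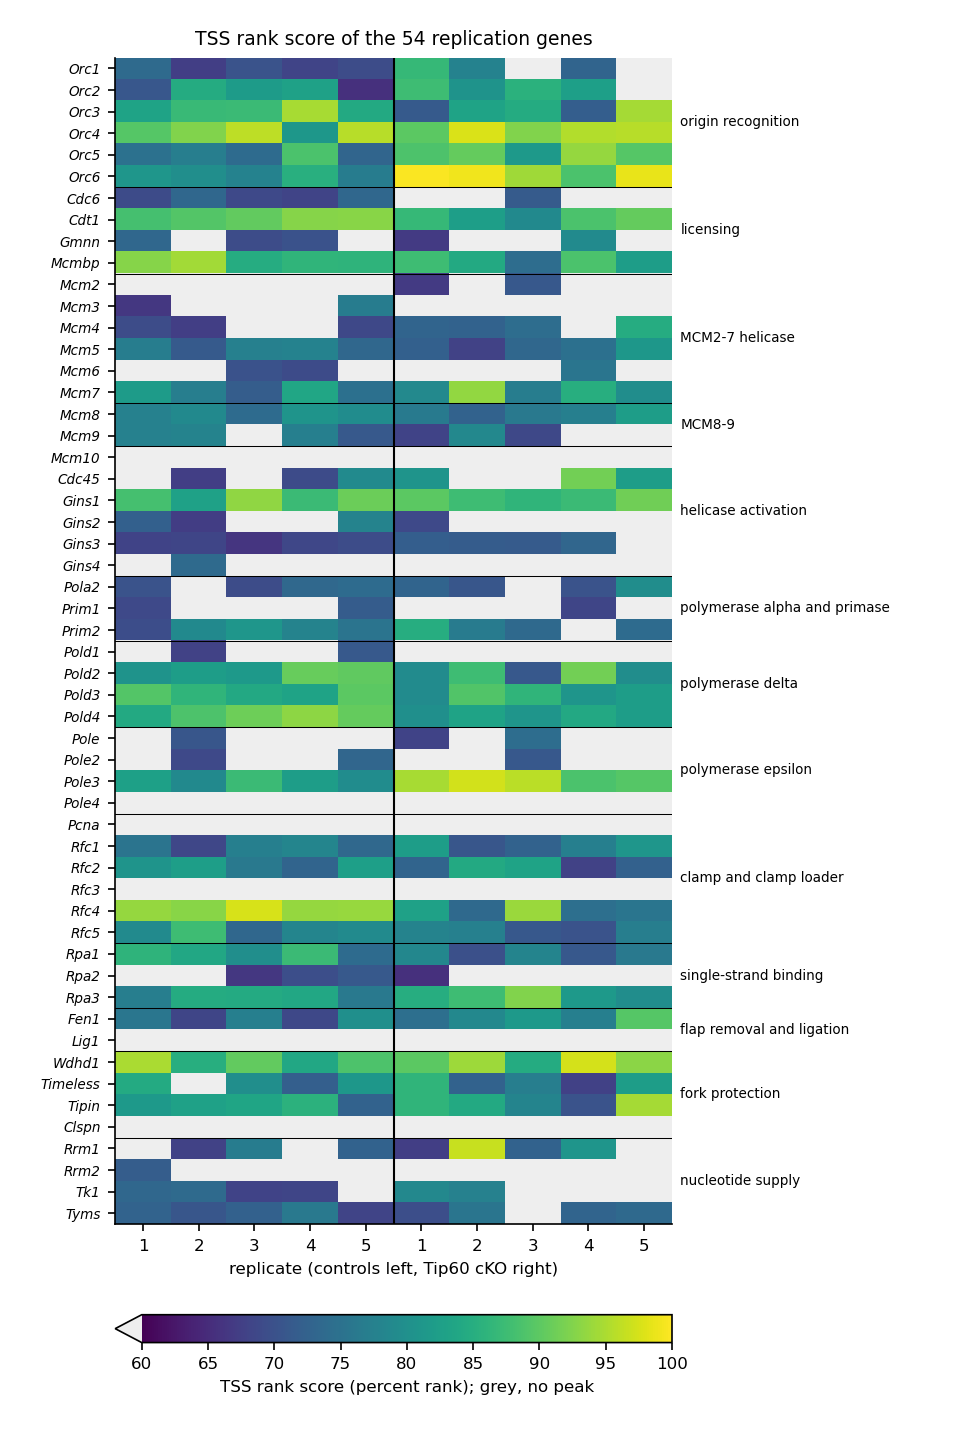
TSS rank score (color, percent rank from 60 to 100) of the 54 replication genes in the 5 control (left) and 5 *Tip60* cKO libraries (right), ordered by role; grey marks a list without a TSS peak. The 6 rows that are grey throughout are *Mcm10*, *Pole4*, *Pcna*, *Rfc3*, *Lig1* and *Clspn*, and *Orc6* and *Pole3* are brighter on the right.

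The MCM2-7 genes, whose products form the hexameric helicase, differed among themselves. *Mcm7* and *Mcm5* had peaks in all 10 lists, with control scores of 77.8 ± 4.92 and 75.4 ± 2.86 (SD, n = 5). *Mcm4* had peaks in 3 control and 4 *Tip60* cKO lists, *Mcm6* in 2 and 1, *Mcm3* in 2 and 0, and *Mcm2* in 0 and 2. In *Mcm7* the strongest peak lay 1.30 kb downstream of the GENCODE 5′ end (median over the 10 lists), nearer to the TSS of *Ap4m1* (877 bp) than to this 5′ end. The RefSeq start of *Mcm7* lies 539 bp downstream of its GENCODE 5′ end, so that this order depends on the annotation.

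Of the GINS genes, *Gins1* had a peak in all lists and *Gins4* in 1 control list. Of the origin recognition genes all 6 had a TSS peak in every control list, and *Orc3*, *Orc4*, *Orc5* and *Orc6* had one in every *Tip60* cKO list as well. Among the subunits of polymerases delta and epsilon, *Pold2*, *Pold3*, *Pold4* and *Pole3* had peaks in all 10 lists. The catalytic subunit *Pold1* had peaks in 2 control lists and no *Tip60* cKO list, the catalytic subunit *Pole* in 1 and 2 lists and the accessory subunit *Pole2* in 2 and 1. At an annotated start of *Pold1* 13.8 kb downstream of its 5′ end, a peak was present in 5 control and 4 *Tip60* cKO lists. The remaining genes with a peak in some lists only were *Orc1*, *Orc2*, *Cdc6*, *Gmnn*, *Mcm9*, *Cdc45*, *Gins2*, *Gins3*, *Pola2*, *Prim1*, *Prim2*, *Rpa2*, *Timeless*, *Rrm1*, *Rrm2*, *Tk1* and *Tyms*.

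The peaks of the replication genes lay farther upstream than those of most genes. In the control lists 60.4% of the strongest TSS peaks of the replication genes had their summit upstream of the TSS (192 peaks, 53.7 to 71.8% per list), compared with 26.4% for all protein-coding genes (25.04 to 29.1% per list). In the *Tip60* cKO lists the shares were 60.8% and 27.8%. The median summit lay 179 bp upstream of the TSS for the replication genes and 214 bp downstream for all protein-coding genes in the control lists. Peak coverage of the replication genes was highest from 300 to 250 bp upstream of the TSS, at 40.6 ± 7.85% in control and 35.2 ± 6.30% in *Tip60* cKO mice, and had a lower maximum downstream, at 30.1 ± 3.86% and 27.3 ± 5.21% (SD, n = 5). In all protein-coding genes the order was the opposite, with 28.3 ± 2.46% upstream and 44.6 ± 1.77% downstream in control mice. No test was made of this difference, as genes of 1 library are not replicates.

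**Figure D3:**
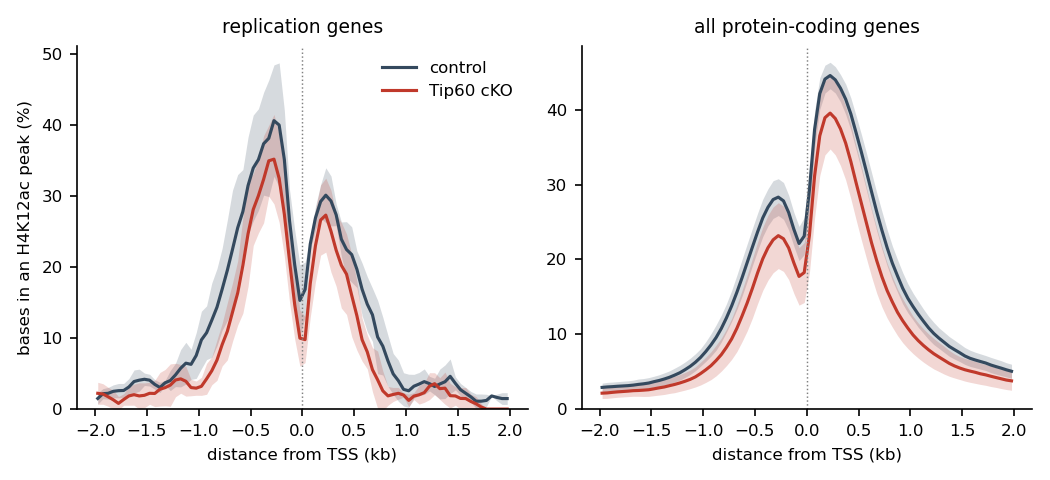
Percent of bases in an H4K12ac peak in 50 bp bins from 2 kb upstream to 2 kb downstream of the TSS, for the 54 replication genes (left) and all 21938 protein-coding genes (right); lines are means and shaded bands SD over 5 mice, control in dark blue and *Tip60* cKO in red. The upstream maximum is the higher one in the replication genes and the downstream maximum in all protein-coding genes.

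A neighboring promoter was more frequent among the replication genes. The TSS of another protein-coding gene lay within 1 kb for 16 of 54 genes (29.6%), compared with 12.6% of all protein-coding genes. These 16 are *Orc1*, *Orc3*, *Orc4*, *Orc6*, *Mcm4*, *Mcm7*, *Mcm8*, *Cdc45*, *Gins1*, *Pole*, *Pole3*, *Rpa1*, *Rpa3*, *Fen1*, *Wdhd1* and *Tk1*, and their peaks cannot be assigned to either gene. In 12 of the 48 genes with a peak, the strongest summit lay nearer to another coding TSS than to the gene's own (medians over the lists). They are *Orc1*, *Orc3*, *Orc4*, *Mcm4*, *Mcm7*, *Mcm8*, *Gins1*, *Pole*, *Rpa1*, *Rpa3*, *Wdhd1* and *Tk1*, and no such count was made over all genes. Among genes with a peak in all 5 control lists and such a neighbor, the summit was upstream in 9 of 12 replication genes and in 41.2% of 2245 protein-coding genes. Without such a neighbor it was upstream in 7 of 17 replication genes and in 18.7% of 8937 protein-coding genes. The upstream share of the replication genes was thus above that of all protein-coding genes with and without a neighbor, and the part of neighboring promoters in it was not tested.

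The promoter sequences shared features that did not enter the choice of genes. RefSeq promoters (GRCm38.p6, 250 bases before to 50 after the start, at the start nearest to the GENCODE 5′ end) were matched for 45 of the 54 genes and for 16504 protein-coding genes; *Gmnn*, *Mcm4*, *Gins1*, *Gins2*, *Gins4*, *Prim2*, *Pole*, *Rfc2* and *Tipin* were not matched. Letters of an E2F site (TTTCGCGC, TTTGGCGC or TTTCCCGC, either strand) were found in 17 of the 45 promoters (37.8%), compared with 2.53% of the protein-coding promoters. They were found in *Cdc6*, *Cdt1*, *Clspn*, *Gins3*, *Mcm3*, *Mcm5*, *Mcm6*, *Mcm7*, *Mcm8*, *Mcmbp*, *Orc1*, *Orc3*, *Pold1*, *Pold3*, *Pole2*, *Pole4* and *Rfc3*. CCAAT (either strand) was found in 57.8% and 38.8%, GGGCGG (either strand, a GC box) in 71.1% and 48.2%, and TTTGAA or TTCGAA (either strand, the CHR element of cell cycle genes) in 13.3% and 17.3%. The observed over expected frequency of CpG had a median of 0.845 in the replication genes and 0.602 in all protein-coding genes. These are matches of letters and do not show binding of a factor.

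The presence of E2F letters did not go with a higher level of H4K12ac. The 17 genes with E2F letters had a median control score of 69.8, and 7 of them had a TSS peak in all lists. The 28 genes without had a median of 73.0, and 13 of them had a peak in all lists. Among the 17 genes with E2F letters, *Pole4* had no peak in its TSS window. At its RefSeq start, where its promoter was read, it had one in every list, so that the count of 7 depends on the start used. For the GC box the values were 73.3 in 32 genes with and 63.5 in 13 genes without, and for CCAAT they were 64.4 in 26 genes with and 74.0 in 19 genes without.

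The 250 bases upstream of the RefSeq start are shown for *Orc6*, *Pole3* and *Rfc4*, the genes with the 2 smallest p-values between the genotypes in rank score or peak height, and for *Mcm7* and *Mcm2*, the MCM2-7 genes with the highest and the lowest control score. They are written 5′ to 3′ in the direction of the gene, from RefSeq on GRCm38.p6, and capitals mark the letters of the motifs above.
Orc6 promoter, chr8:85299382-85299631, plus strand: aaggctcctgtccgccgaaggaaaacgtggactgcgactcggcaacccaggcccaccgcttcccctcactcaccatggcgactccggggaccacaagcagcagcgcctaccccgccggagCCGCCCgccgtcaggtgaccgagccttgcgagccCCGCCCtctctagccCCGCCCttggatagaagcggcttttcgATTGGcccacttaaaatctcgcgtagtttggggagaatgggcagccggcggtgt
Pole3 promoter, chr4:62525015-62525264, minus strand: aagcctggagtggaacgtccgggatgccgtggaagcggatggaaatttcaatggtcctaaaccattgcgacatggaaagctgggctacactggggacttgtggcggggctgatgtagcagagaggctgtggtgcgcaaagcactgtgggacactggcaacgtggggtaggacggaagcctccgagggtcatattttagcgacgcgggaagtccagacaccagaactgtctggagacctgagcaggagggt
Rfc4 promoter, chr16:23127731-23127980, minus strand: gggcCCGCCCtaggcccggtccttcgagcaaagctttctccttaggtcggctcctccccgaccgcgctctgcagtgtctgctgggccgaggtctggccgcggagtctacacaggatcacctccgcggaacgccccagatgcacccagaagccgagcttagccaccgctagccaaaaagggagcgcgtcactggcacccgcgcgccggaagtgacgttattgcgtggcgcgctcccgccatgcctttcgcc
Mcm7 promoter, chr5:138171884-138172133, minus strand: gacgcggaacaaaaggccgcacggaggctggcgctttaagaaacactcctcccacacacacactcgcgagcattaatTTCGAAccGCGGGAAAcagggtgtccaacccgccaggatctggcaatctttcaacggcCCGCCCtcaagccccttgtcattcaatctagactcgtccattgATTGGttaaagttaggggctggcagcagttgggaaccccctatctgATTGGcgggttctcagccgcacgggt
Mcm2 promoter, chr6:88898781-88899030, minus strand: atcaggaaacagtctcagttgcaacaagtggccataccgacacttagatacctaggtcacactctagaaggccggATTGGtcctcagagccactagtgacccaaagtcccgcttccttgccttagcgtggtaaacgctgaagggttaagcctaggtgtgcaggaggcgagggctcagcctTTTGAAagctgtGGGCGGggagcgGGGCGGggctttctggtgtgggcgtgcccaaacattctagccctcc
In these bases the *Orc6* promoter holds 1 CCAAT and 3 GC boxes, *Rfc4* holds 1 GC box and *Pole3* holds none of the motifs. *Mcm7* holds 1 E2F match, 2 CCAAT, 1 GC box and 1 CHR match, whereas *Mcm2* holds 1 CCAAT, 2 GC boxes and 1 CHR match but no E2F match.

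The comparison of the genotypes asks whether loss of TIP60 changes H4K12ac at their TSS and gene body. The 4 measures compared were the TSS rank score, the percent of the 4 kb TSS window in peaks (TSS coverage), the height of the strongest TSS peak, and the percent of the gene body in peaks. Each was fitted with limma across all genes that passed its filter, and adjusted p-values by Benjamini and Hochberg are over all of them.

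TSS coverage was lower in *Tip60* cKO at most replication genes, as it was at most genes. Of the 54 genes, 46 had a TSS peak in at least 2 lists and were tested, and coverage was lower in 40 of them (87.0%), compared with 81.1% of all 21672 genes tested. The median difference was -3.74 percentage points for the replication genes and -4.01 for all genes. The mean coverage over all 54 genes was 13.7, 14.2, 10.3, 10.003 and 14.1% in control replicates 1 to 5 and 11.9, 8.32, 9.34, 9.70 and 5.59% in *Tip60* cKO replicates 1 to 5. No *Tip60* cKO library reached the 3 highest controls, but replicate 1 was above the 2 lowest. No replication gene passed an adjusted p-value of 0.05 (0 of 46, compared with 1.56% of all genes tested). At an unadjusted p-value under 0.05 there were 7 genes, all of them lower (15.2% of 46, compared with 22.3% of all genes tested).

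*Pold4* (chromosome 19, 4231899 to 4233634, plus strand), an accessory subunit of polymerase delta, had the broadest acetylation among the replication genes. Peaks covered 68.8, 66.3, 56.3, 57.5 and 64.3% of its TSS window in control replicates 1 to 5 and 50.8, 38.3, 55.4, 40.2 and 12.2% in the *Tip60* cKO replicates. The groups did not overlap, which held in the lower direction for 5.23% of all genes tested, but the closest values differed by less than the spread within a group. The difference was -23.3 ± 6.81 percentage points (SE) with an adjusted p-value of 0.0873. With the same number of peaks taken from each library, it was -30.3 points with an adjusted p-value of 0.0152.

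*Orc5* (chromosome 5, 22486485 to 22550429, minus strand), a subunit of the origin recognition complex, was the other gene without overlap in coverage. Its values were 23.5, 27.7, 19.6, 19.6 and 29.4% in control and 13.6, 11.1, 12.9, 17.7 and 15.7% in *Tip60* cKO mice. The difference was -9.76 ± 2.65 points with an adjusted p-value of 0.0743. The single-strand binding genes followed, with *Rpa1* at 16.9 ± 4.04% in control and 8.85 ± 1.51% in *Tip60* cKO (adjusted p-value 0.0942) and *Rpa3* at 35.6 ± 8.08% and 21.5 ± 7.58% (adjusted p-value 0.108; SD, n = 5). Among the 6 genes with more coverage in *Tip60* cKO, the smallest p-values were those of *Mcm2* (2.42%, compared with 0%, adjusted p-value 0.528), *Rrm1* (8.78 and 6.65%, 0.765), *Pole3* (11.3 and 9.94%, 0.799) and *Pola2* (5.68 and 4.77%, 0.861).

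**Figure D4:**
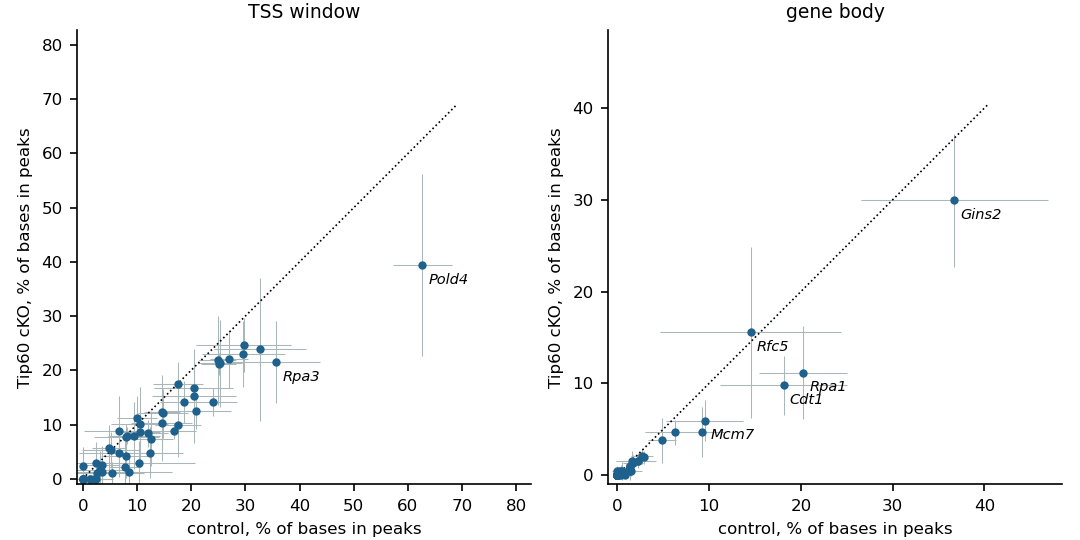
Percent of bases in H4K12ac peaks in *Tip60* cKO (y axis) and control mice (x axis) for the TSS windows of the 54 replication genes (left) and the gene bodies of the 51 genes longer than 4 kb (right); points are means and bars SD of 5 mice, and the dotted line marks equal values. Most points lie below the line, with *Pold4* (62.6 and 39.4%) and *Gins2* (36.7 and 29.9%) farthest to the right.

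The rank score of the replication genes was not called different at any gene. Of the 46 genes tested, 29 scored lower and 17 higher in *Tip60* cKO, with a median difference of -4.05 (all genes -0.69). The share that scored lower was 63.0%, compared with 55.6% of all genes. No gene passed an adjusted p-value of 0.05 (0.235% of all genes did), and 7 genes had an unadjusted p-value under 0.05, 4 lower and 3 higher (15.2%, compared with 11.8% of all genes tested). The median difference was 0.41 when the same number of peaks was taken from each library, with 40 genes tested.

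*Cdc6* (chromosome 11, 98907801 to 98923940, plus strand), which loads the MCM helicase, had a TSS peak in all 5 control lists and in 1 *Tip60* cKO list. Its scores were 69.2, 73.3, 68.8, 68.3 and 73.3 in control mice and 0, 0, 71.4, 0 and 0 in *Tip60* cKO mice. The difference was -56.3 ± 13.5 (SE) with an adjusted p-value of 0.112. The single peak was in replicate 3, and without that mouse the adjusted p-value was 2.83e-07. There 4 identical zeros remained in the group, so that this fit cannot decide whether the scores differ. Where present, these peaks were weak, with fold enrichments of 3.39 ± 0.48 (SD, n = 5) in control and 3.30 in the single *Tip60* cKO list. *Cdc6* was the only replication gene with a peak in at least 4 more control lists (0.955% of all genes tested), and none had one in at least 4 more *Tip60* cKO lists (0.291%). With the starts of all annotated transcripts, *Cdc6* had a peak in 3 *Tip60* cKO lists.

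The other genes with peaks in at least 2 more control lists were *Orc1* (5 control and 3 *Tip60* cKO lists), *Mcm3* (2 and 0), *Gins2* (3 and 1), *Pold1* (2 and 0), *Rpa2* (3 and 1) and the thymidine kinase gene *Tk1* (4 and 2). *Mcm2* alone had 2 more *Tip60* cKO lists (2 and 0). *Tip60* cKO replicate 5, the list with the fewest tags, had no peak at any of these 8 genes. A difference of 1 list was found in 15 genes and the same number of lists, between 1 and 9, in *Cdc45* and *Pola2*. More control lists of any number were found at 18 of the 54 genes and more *Tip60* cKO lists at 5. Over the 21938 protein-coding genes these counts were 2816 and 1228, so that control lists were in excess there too. Genes with a peak in some lists only were 25 and 4678. The share over all genes was not computed for a difference of 2 lists.

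In *Pold4* the rank score was lower in every *Tip60* cKO mouse, at 84.3, 88.9, 91.2, 93.1 and 90.5 in control and 79.95, 83.2, 80.9, 84.1 and 82.3 in *Tip60* cKO mice (difference -7.50 ± 2.05, adjusted p-value 0.173). It was the only replication gene with a lower score in every *Tip60* cKO mouse (1.62% of all genes tested), while *Orc6* and *Pole3* had a higher score in every one (1.93%). *Pole3* scored 93.2 in *Tip60* cKO and 82.2 in control (difference 11.03 ± 2.51, SE, adjusted p-value 0.112 by limma), and *Orc5* scored 88.8 and 77.5 (11.3 ± 3.54, 0.271). *Rfc4* scored 80.1 in *Tip60* cKO and 94.3 in control (-14.2 ± 3.88, 0.173). *Rpa1* scored 82.2 ± 5.37 in control and 74.7 ± 4.10 in *Tip60* cKO (adjusted p-value 0.392), and *Fen1*, the flap nuclease, 74.0 ± 5.18 and 80.3 ± 5.64 (0.503; SD, n = 5).

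The height of the strongest peak was called different at 4 replication genes, of which 3 were higher and 1 was lower in *Tip60* cKO. By pileup without the input none of the 4 passed the threshold. Relative to the library median, the log2 difference in pileup kept its size in *Pole3* (0.56, compared with 0.51) and *Orc5* (0.51, compared with 0.54) and was near 0 in *Orc6* (0.12, compared with 0.84) and *Rfc4* (-0.05, compared with -0.59). Per 1000000 tags it was 0.30 in *Pole3*, 0.24 in *Orc5*, -0.15 in *Orc6* and -0.32 in *Rfc4*. Height is the log2 fold enrichment minus its median over genes in that library and was tested at the 23 genes with a TSS peak in all 10 lists, against 13004 such genes in all. The called share was 17.4% of the 23 genes and 3.57% of all genes tested, of which 2.78% were higher and 0.792% lower. At an unadjusted p-value under 0.05 there were 6 genes (26.1%, compared with 17.9%), and 10 of the 23 were lower (43.5%, compared with 45.6%). The median difference was 0.01 for the replication genes and 0.02 for all genes. When height was taken from the pileup alone, relative to the median of the library, 0 of the 23 genes and 0.131% of all genes were called, with limma and the same filter. The fits by pileup took the peak with the highest pileup in the window, which need not be that with the highest fold enrichment. With the pileup per 1000000 tags, 6 genes were called, all lower (*Mcmbp*, *Pold4*, *Rfc2*, *Rfc5*, *Rpa1* and *Rpa3*), compared with 21.4% of all genes tested (21.3% lower), and none of them was among the former 4.

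*Orc6* (chromosome 8, 85299632 to 85308278, plus strand), the smallest origin recognition subunit, has the TSS of *Vps35* 170 bp away. The fold enrichment of its peak was 5.04, 4.79, 4.71, 5.61 and 4.37 in control replicates 1 to 5 and 10.5, 8.38, 6.79, 5.82 and 7.80 in *Tip60* cKO replicates 1 to 5. All *Tip60* cKO values were above all control values, which held for 3.16% of the genes tested when each library was set relative to its median. The log2 difference in height was 0.84 ± 0.15 (SE) with an adjusted p-value of 0.00128, and the rank score of 96.1 ± 4.68, compared with 80.1 ± 3.30 in control (SD, n = 5), was higher in every *Tip60* cKO mouse (1.93% of all genes tested) with an adjusted p-value of 0.0735.

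The pileup behind these values did not differ in the same way. Per 1000000 tags it was 1.24, 1.18, 1.17, 1.17 and 0.55 in control and 1.35, 1.0, 0.96, 0.76 and 1.09 in *Tip60* cKO mice, and the groups overlapped. The local background, relative to the genome-wide background of the library, was 2.02, 1.93, 2.07, 1.67 and 1.0 in control and 1.0 in all 5 *Tip60* cKO lists. In control replicate 5 the strongest peak was another one, 250 bp upstream of the TSS, while in the other 9 lists the summit lay 39 to 109 bp downstream. By pileup relative to the median the difference was 0.12 with an adjusted p-value of 0.808 by limma. That fit took the peak with the highest pileup in each list, so that it does not rest on the pileups listed above in every library.

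*Rfc4* (chromosome 16, 23113943 to 23127737, minus strand) showed the reverse. Its fold enrichment was 7.62, 7.31, 9.30, 7.15 and 7.15 in control and 5.01, 3.74, 6.78, 3.96 and 3.63 in *Tip60* cKO mice. The library medians over all genes tested by height were also lower in *Tip60* cKO, at 5.10 to 5.75, compared with 5.96 to 6.45 in control. Relative to the median of each library, *Tip60* cKO replicate 3 lay within the control range, and the log2 difference in height was -0.59 ± 0.15 with an adjusted p-value of 0.0211. The local background was 1.0 in all control lists and 1.55, 1.69, 1.25, 1.75 and 1.58 in the *Tip60* cKO lists. The pileup per 1000000 tags was 1.05 ± 0.13 in control and 0.85 ± 0.19 in *Tip60* cKO (SD, n = 5), and relative to the library median the difference was -0.05 with an adjusted p-value of 0.936.

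*Pole3* (chromosome 4, 62522649 to 62525068, minus strand) encodes a histone-fold subunit of polymerase epsilon, and the TSS of *4933430I17Rik* lies 301 bp away. Its local background was 1.0 in all 10 lists, so that its fold enrichments rest on the genome-wide background and not on input tags at this site. The fold enrichment was 5.29, 4.67, 6.35, 5.10 and 4.77 in control and 7.19, 7.28, 7.23, 5.82 and 5.40 in *Tip60* cKO mice, and 3 *Tip60* cKO values were above all controls. Relative to the median of each library, the height was higher in every *Tip60* cKO mouse, with a difference of 0.51 ± 0.14 and an adjusted p-value of 0.0280. By pileup relative to the median the difference was 0.56 and the adjusted p-value 0.0690, again higher in every *Tip60* cKO mouse (1.53% of all genes tested), and per 1000000 tags it was 0.30 with an adjusted p-value of 0.121. The median pileup over all genes tested was lower in *Tip60* cKO (0.741 ± 0.055 per 1000000 tags, compared with 0.905 ± 0.044 in control), and that of *Pole3* was 0.86 ± 0.12 and 0.70 ± 0.09 (SD, n = 5).

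*Orc5* had a fold enrichment of 4.02, 4.33, 4.08, 6.13 and 3.79 in control and 5.96, 5.73, 4.60, 6.71 and 5.40 in *Tip60* cKO mice, where control replicate 4 lay within the *Tip60* cKO range. The log2 difference in height was 0.54 ± 0.15 with an adjusted p-value of 0.0310, and by pileup it was 0.51 with an adjusted p-value of 0.144. Its strongest peak was thus higher in fold enrichment while its TSS window was covered to a smaller extent (14.2%, compared with 24.0%). Local background was 1.0 in the *Tip60* cKO lists and up to 1.26 in the control lists. The calls of *Pole3*, *Orc5* and *Rfc4* were each lost when some single libraries were left out (adjusted p-values up to 0.0856, 0.0822 and 0.0694), whereas *Orc6* kept its call without any 1 of the 10 libraries (up to 0.00609). These libraries were *Tip60* cKO replicates 1, 2 and 3 and control replicates 1, 2 and 5 for *Pole3*, *Tip60* cKO replicates 2, 4 and 5 and control replicate 3 for *Rfc4*, and all but *Tip60* cKO replicate 3 and control replicate 4 for *Orc5*. Within sequencing lane 7 (3 mice per genotype) only *Orc6* was called, with a difference of 1.004 on the log2 scale and an adjusted p-value of 0.00609, and within lane 8 (2 mice per genotype) no gene was called, with differences in the same directions.

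**Figure D5:**
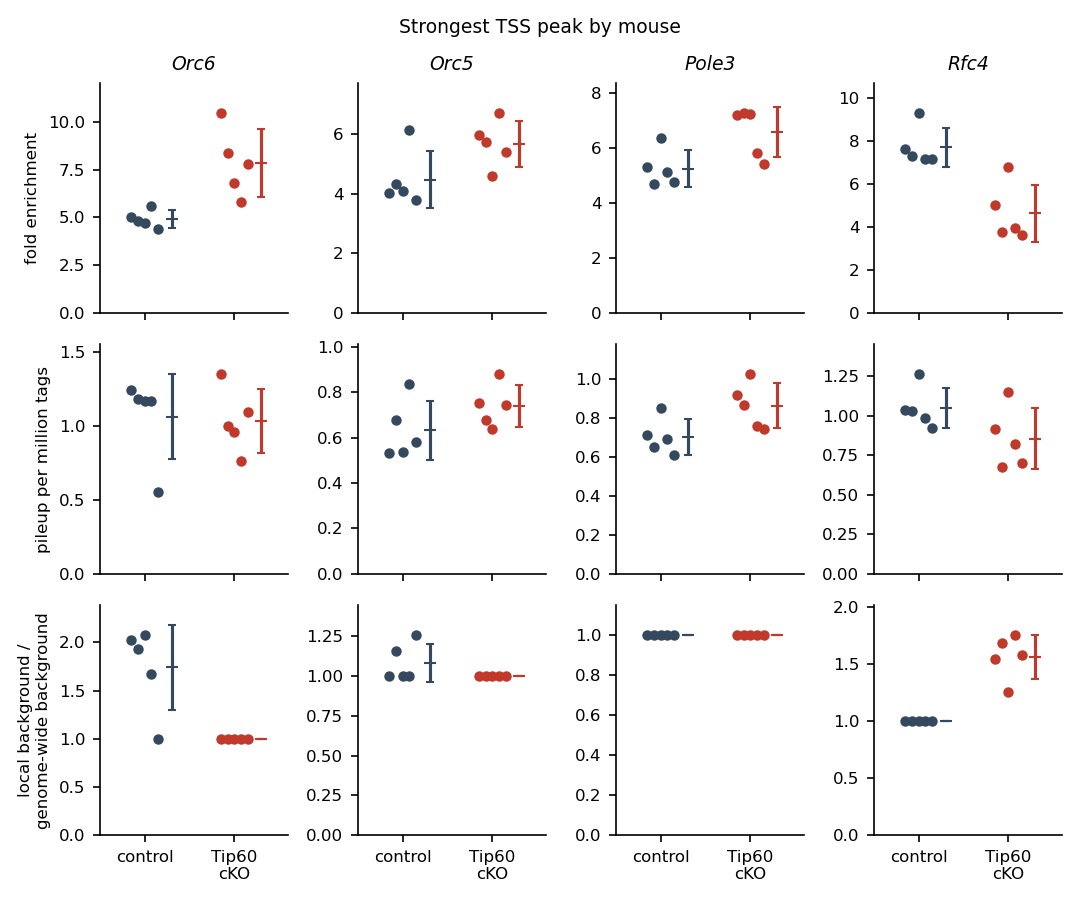
Fold enrichment (top), pileup per 1000000 tags (middle) and local background relative to the genome-wide background of the library (bottom) of the strongest TSS peak of *Orc6*, *Orc5*, *Pole3* and *Rfc4*; points are mice, control in dark blue and *Tip60* cKO in red, and bars show the mean and SD of 5. The background of *Orc6* is 1.67 to 2.07 in 4 of 5 controls and that of *Rfc4* is 1.25 to 1.75 in *Tip60* cKO, while that of *Pole3* is 1.0 in all 10 libraries.

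Among the other genes tested by height, *Pold4* (-0.29, adjusted p-value 0.248), *Rpa1* (-0.28, 0.305) and the origin recognition gene *Orc3* (-0.25, 0.448) had the smallest p-values with a lower log2 height. *Fen1* followed the 3 called genes with a higher one (0.39, 0.155). The local background of *Fen1* was 1.30 ± 0.14 in control and 1.0 in all *Tip60* cKO lists. Over the 23 genes, the background was over 1.2-fold higher in control at *Orc4*, *Orc6*, *Rpa3* and *Fen1* (17.4%, compared with 12.8% of all genes tested) and over 1.2-fold higher in *Tip60* cKO at *Rfc4* (4.35%, compared with 2.75%). As each genotype has 1 input library, a difference in background between the genotypes and one between the 2 input libraries cannot be told apart.

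Gene bodies, from 2 kb downstream of the TSS up to the annotated gene end, were measured in the 51 replication genes longer than 4 kb. In 23 of these no list had a peak in the gene body. *Gins2* (chromosome 8, 120578633 to 120589304, minus strand), a subunit of the GINS complex, had the highest coverage. Its TSS had a peak in 3 control lists and 1 *Tip60* cKO list. Peaks covered 35.5, 52.6, 31.3, 25.4 and 38.8% of its body in control and 35.0, 29.7, 39.0, 22.0 and 23.9% in *Tip60* cKO mice. *Rpa1* (20.2 ± 4.79%), *Cdt1* (18.1 ± 6.97%), *Rfc5* (14.5 ± 9.85%) and *Mcm7* (9.52 ± 4.18%) followed in control mice (SD, n = 5). No TSS of another protein-coding gene lay within 2 kb of the summits of the control gene body peaks of these 5 genes.

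Gene body coverage was lower in *Tip60* cKO in 22 of the 26 replication genes tested (84.6%, compared with 74.2% of all 12823 genes tested), with a median difference of -0.68 percentage points (all genes -0.53). No replication gene was called, compared with 0.351% of all genes, and 6 had an unadjusted p-value under 0.05, all lower (23.1%, compared with 14.9%). In *Rpa1* (chromosome 11, 75298166 to 75348324, minus strand) the coverage was 19.5, 25.3, 18.9, 13.3 and 24.2% in control and 17.6, 11.7, 11.4, 11.7 and 3.46% in *Tip60* cKO mice. The groups overlapped in 1 control mouse, and the difference was -9.07 ± 2.95 points with an adjusted p-value of 0.194.

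*Pold1*, the catalytic subunit of polymerase delta, was the only replication gene with a lower gene body coverage in every *Tip60* cKO mouse (3.96% of all genes tested). Its values were 7.96, 9.47, 13.3, 7.62 and 7.62% in control and 5.76, 5.74, 6.93, 4.87 and 0% in *Tip60* cKO mice, with a difference of -4.54 ± 1.55 points and an adjusted p-value of 0.209. The helicase gene *Mcm9* had 2.89 and 1.92% (0.228) and *Orc2* 1.53 and 0.45% (0.255). In *Mcm9*, 50.3% of the bases of control gene body peaks belonged to peaks near the TSS of *Asf1a*, which lies inside the gene. Among the 4 genes with more coverage in *Tip60* cKO, *Orc3* had 0.46% compared with 0% (0.457), *Cdc45* 0.42 and 0.14% (0.656), *Rfc5* 15.6 and 14.5% (0.967) and *Rfc2* 0.46 and 0.40% (0.978).

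By role, TSS coverage was lower in all 6 origin recognition genes, all 4 licensing genes, both MCM8-9 genes, the 4 tested genes of helicase activation, all 4 polymerase delta genes, the 4 tested genes of the clamp and clamp loader, the 3 single-strand binding genes, the 3 tested fork protection genes and *Fen1*, where 81.1% of all genes tested were lower. It was lower in 4 of 6 MCM2-7 genes, 2 of 3 polymerase alpha and primase genes, 1 of 3 tested polymerase epsilon genes and 2 of 3 tested genes of nucleotide supply. The median difference was -8.03 percentage points in the single-strand binding genes and -0.15 in the MCM2-7 genes, and no gene of any role passed the threshold. In peak height the 4 calls were those of *Orc5*, *Orc6*, *Pole3* and *Rfc4* described above.

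For comparison, 2 further lists were read. Among 33 other genes of replication and its control, 19 had a TSS peak in all lists (57.6%) and the median control score was 78.3. Among 30 genes of synaptic plasticity, 23 had a peak in all lists (76.7%) and the median control score was 89.8. The mean TSS coverage of the synaptic genes was 45.8 ± 5.58% in control and 36.9 ± 8.84% in *Tip60* cKO mice, and that of the 54 replication genes 12.5 ± 2.13% and 8.97 ± 2.29% (SD, n = 5). In coverage, 1 of 30 tested other replication genes and 1 of 29 tested synaptic genes were called, both lower. In rank score, height and gene body coverage neither of these lists had a called gene. The comparison lists share all 10 libraries with the 54 genes, and no test between lists was made.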

How the data were processed

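H4K12ac ChIP-Seq peak lists of 5 *Tip60* cKO and 5 control mice were used, grouped by the genotype in the labels. The authors aligned the reads to mm10 with STAR and discarded PCR duplicates using samtools. For each library they then ran MACS 2.1.0.20140616 (q < 0.1) with 1 pooled input per genotype as background. The pileup the authors deposited is the coverage signal of extended tags at a summit. Fold enrichment, as deposited, is a ratio of pileup over local background after adding 1 to each. The −log10 p-values and −log10 q-values are those the authors obtained from MACS and were used only for a stricter threshold.

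The background of each peak was recovered from pileup and fold enrichment. Peaks were assigned to the TSS window or gene body with at least 1 base in it. Depth ranged from 22864189 to 37923809 tags. No reads per gene are listed, hence no counting error was given. Errors come from the spread among libraries, 1 per mouse, so that animal and library preparation cannot be told apart. In the limma fits this spread was moderated over all genes tested, and the p-values set the genotype difference against it. A window lacking a peak did not reach q < 0.1 with the tags available.

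Genotypes were compared with limma 3.58.1 (lmFit, eBayes) in R 4.3.3, over genes with a TSS peak in at least 2 lists (rank score, coverage), in all 10 lists (height) or with a gene body peak in at least 2 lists, and called at 0.05 after Benjamini-Hochberg adjustment over all genes tested. The study used DiffBind on reads, which was not repeated here. Other steps used Python 3.11.15, numpy 2.4.6 and pandas 2.3.3, and the fits were also run on simulated data. The simulated coverages and heights had normal noise and held no groups of identical zeros, so that they say nothing about such groups. Fold enrichments of weak peaks are discrete, so that scores can tie.

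Members and lists were chosen with earlier results of these data known. Genes named with values are those called in any fit, the 4 with the smallest p-values in each direction of each fit, the 6 highest and the lowest in control score, the 5 with the largest gene body coverage, and those whose lists differ by at least 2 between genotypes. *Gins1*, *Gins4*, *Pole* and *Pole2* were named besides. The lanes, 7 and 8, were taken from the file names, and replicates 1 to 3 of both genotypes were in lane 7. Labels and methods of the study differ in strain and sex of the mice, which entered no comparison. Alternatives are given in the closing section. Presence at RefSeq starts was added after seeing the data. The values of 1 marker gene are not reported here.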

Additional observations from a re-analysis of the deposited data

Results flagged for a closer look

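A group of 5 mice was looked at again when its highest or lowest value lay apart from the other 4 by more than 0.71 of the range of the group. This was the case in 7 of 72 groups of values (9.72%). Chance gives about 5 in 100 for independent values from a normal distribution, and this rate does not hold here. In the groups of *Cdc6* and *Cdc45* all values but 1 were 0, and *Orc5* and *Rfc4* were each counted in rank score and height.

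Control replicate 4 stood above the other controls in *Orc5*, with a rank score of 88.7 (nearest 77.1) and a log2 height of 0.040 (nearest -0.53). Control replicate 3 stood above the others in *Rfc4*, with a rank score of 97.6 (nearest 93.8) and a log2 height of 0.53 (nearest 0.26). Without control replicate 4 the difference in *Orc5* height was 0.68 with an adjusted p-value of 0.00719, and without control replicate 3 that of *Rfc4* was -0.53 with an adjusted p-value of 0.0651. The *Cdc6* score of 71.4 in *Tip60* cKO replicate 3 was the single value above 0 of its group. In gene bodies, control replicate 5 had 0.72% in *Cdc45*, where the other controls had none, and control replicate 2 had 1.497% in *Rfc2* (nearest 0.42%).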

How the results depend on the processing

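Under all alternatives but 1 no replication gene was called in TSS coverage (*Pold4*, 1 gene, with the same number of peaks per library, compared with 3.79% of all genes tested), and none in gene body coverage under any. In rank score, where 0.235% of all genes were called, the number of replication genes called was 1 with a trended robust prior (*Orc6*, all genes 0.397%) or a peak in at least 5 lists (*Orc6*, 0.404%), 2 with a peak in all 10 lists (*Orc6*, *Pole3*, 1.78%) and 4 in lane 8 alone, with 2 mice per genotype (*Rpa2*, *Mcm9*, *Cdc6*, *Rfc4*, 4.30%). In *Rpa2*, *Mcm9* and *Cdc6* both *Tip60* cKO mice of lane 8 had no peak. With identical zeros in a group, these fits cannot decide whether the scores differ. By presence or absence of peaks, a count without a test, 1 gene (*Cdc6*) differed by at least 4 lists between the genotypes. In height the number called was 1 in lane 7 alone (all genes 1.18%), 0 in lane 8 alone (0.161%), 0 by pileup relative to the median (0.131%) and 5 with a peak in at least 8 lists (3.49%), where *Orc1* was called in addition (0.60, adjusted p-value 0.0370 by limma, with a peak in 3 *Tip60* cKO and 5 control mice, and a fold enrichment of 3.75 to 5.63 and 2.72 to 3.86). The replicate block left 4 genes called in height and 0 in the other measures, with a median difference in coverage of -3.74, while the count over all genes in coverage went from 339 to 0. Same-numbered mice correlated by -0.04 to 0.06 in their deviations and are not paired by the design.

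The median difference of the replication genes in rank score, -4.05, was 0.41 with the same number of peaks, -0.31 in lane 7, -1.14 in lane 8, -2.40 ranked by pileup, -2.81 with at least 5 lists, -1.23 with all 10 lists and -2.89 without a filter. In TSS coverage it was -2.30 in lane 7 (-3.74 in all mice), and in the gene body -0.43 with the same number of peaks (20 genes tested; -0.68 over 26 genes with all peaks). In height it was -0.32 by pileup per 1000000 tags and 0.11 with at least 8 lists, and in the gene body 0.34 by the rank of the strongest peak. The median control score, 70.2, was 74.4 by pileup and 71.4 within 1 kb. Genes with a peak in all 10 lists, 23, were 15 with the same number of peaks, and genes without any, 6, were 3 with all transcripts (counting *Pcna*, whose peak lies beyond its end, as having one).

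With each library left out, 0 to 2 genes were called in rank score (2 without *Tip60* cKO replicate 3, *Cdc6* and *Rfc4*, and 1 without *Tip60* cKO replicate 4, *Orc6*), 1 to 4 in height (1 without *Tip60* cKO replicate 2), and 0 to 0 in both coverages. The *Cdc6* call rests on a *Tip60* cKO group of zeros alone, so that it cannot decide whether the scores differ. Median differences were -4.80 to -2.58 in rank score, -4.49 to -2.66 in TSS coverage, -0.056 to 0.057 in height and -0.90 to -0.52 in the gene body, the median control score was 69.9 to 72.1, and 23 to 25 genes had a peak in all lists and 6 to 7 in none.

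With a library left out, 30 of the 141 differences of single genes took both signs (10 of 46 in rank score, 11 of 46 in TSS coverage, 5 of 23 in height and 4 of 26 in the gene body). Among the genes named by their p-values, the differences that reversed were those of *Orc6* (-0.15) and *Fen1* (-0.15) in height by pileup per 1000000 tags. In TSS coverage they were *Pola2* (-0.18 at q below 0.01, -0.28 with the same number of peaks, -0.59 to 2.32 with a library left out) and *Pole3* (-1.94 in lane 8). In gene bodies they were *Orc2* (0.026 with the same number of peaks), *Mcm9* (0.48 by rank), *Rfc2* (-0.26 in lane 7, -23.4 by rank, -0.12 to 0.33 with a library left out) and *Rfc5* (-2.38 to 5.10 with a library left out). Of the 627 alternative values of single named genes, 563 kept direction and side of the threshold, 32 lost a call, 12 gained one and 20 reversed. The cause of these changes was not tested. Per 1000000 tags the median pileup over all genes tested was lower in *Tip60* cKO (0.741, compared with 0.905 in control), and the part of this in the changes was not tested. What depth limits was not tested. At 25 of 54 genes a peak was found in some lists only. Across genotypes the number of genes with a peak did not follow the tags in every library (34 genes with 36938062 tags in *Tip60* cKO replicate 2, 37 genes with 27418740 tags in control replicate 4). Within *Tip60* cKO the library with the fewest tags had the lowest number (29) and that with the most tags, replicate 1, the highest (40). Within control the library with the most tags, replicate 5, had the highest number (41), while the lowest (36, replicate 3) was not in that with the fewest tags.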
